A study of Mus musculus with 2 samples.

Results

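The genes described here mark the subtypes of inhibitory interneurons in the hippocampus: Pvalb, Sst, Vip, Npy, Cck, Reln, Calb2, Lhx6, Nos1 and Htr3a. They were chosen by symbol in the platform's probe annotation. All 10 were on the array, each as 1 probe, among 16446 genes the annotation names. All 10 were also above background in all 4 channels, as were 13630 of the named genes, which are called measured genes below. Total hippocampal RNA was compared on 2 two-colour arrays. On both, wild type carried the dye Cy5 and the mutant pool carried Cy3. The mutant pool was AtrxdE2 on the first array, from mice with the AtrxΔE2 allele of Atrx, the gene of a chromatin remodelling protein. On the second it was AtrxdE2+TMPyP4, from mice with the same allele that received the porphyrin TMPyP4, a G-quadruplex ligand. It was injected into the peritoneum 2 times a week, 30 mg/kg each time, starting on postnatal day 30 and ending on postnatal day 90. Wild-type and AtrxdE2 groups carry no treatment in the labels, and the labels do not say whether they received vehicle.

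Each mutant group was 1 pool of 5 mice on 1 array, and wild type, also pooled from 5 mice, was on both arrays. No value below has a replicate error and no p-value was computed. The dyes were not swapped, so genotype and dye cannot be told apart within an array. Whether 1 wild-type pool served both arrays is not stated. The labels give neither the age at sampling nor the cells in which the allele is present. The tissue is a mixture of cells, so fewer interneurons and less RNA per interneuron cannot be told apart.

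Interneurons release GABA and make up a minority of hippocampal neurons. Their subtypes are told apart by calcium-binding proteins, by the neuropeptides they release beside GABA, and by their developmental origin. Parvalbumin cells are fast-spiking basket and axo-axonic cells that target the soma and axon of pyramidal cells, somatostatin cells such as those of the stratum oriens target dendrites, and many VIP and calretinin cells target other interneurons. Cells from the medial ganglionic eminence, which include most parvalbumin and somatostatin cells, express Lhx6, whereas Htr3a marks cells from the caudal ganglionic eminence.

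The results turn mainly on Pvalb, Npy and Sst, and the sequence just upstream of their start sites is shown because TMPyP4 binds G-quadruplexes, structures that runs of G can form. RefSeq (GRCm38.p6) gave windows for 8 of the 10 genes by symbol, 11 windows in all; Calb2 and Htr3a were not matched. Each window holds the 250 bases before a start site, printed 5′ to 3′ on the gene's strand. Capitals in the Pvalb window mark 4 runs of GGG separated by 1 to 7 bases of any kind, searched on both strands. Capitals in the Sst window mark TGACGTCA, the palindromic cAMP response element, for which the Sst promoter is a textbook example. The windows are Pvalb at chr15:78206401-78206650 on the minus strand (1 of 2 start sites), Npy at chr6:49822460-49822709 on the plus strand and Sst at chr16:23890845-23891094 on the minus strand.
Pvalb: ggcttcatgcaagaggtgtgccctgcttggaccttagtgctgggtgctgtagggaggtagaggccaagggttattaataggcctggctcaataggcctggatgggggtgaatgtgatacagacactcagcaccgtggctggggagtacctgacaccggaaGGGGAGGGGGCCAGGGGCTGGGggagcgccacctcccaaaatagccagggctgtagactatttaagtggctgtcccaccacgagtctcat
Npy: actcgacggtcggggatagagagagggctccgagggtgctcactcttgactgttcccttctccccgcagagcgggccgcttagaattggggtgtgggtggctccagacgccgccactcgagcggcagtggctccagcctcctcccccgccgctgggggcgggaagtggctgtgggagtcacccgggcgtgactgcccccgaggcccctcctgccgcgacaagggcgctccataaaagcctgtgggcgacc
Sst: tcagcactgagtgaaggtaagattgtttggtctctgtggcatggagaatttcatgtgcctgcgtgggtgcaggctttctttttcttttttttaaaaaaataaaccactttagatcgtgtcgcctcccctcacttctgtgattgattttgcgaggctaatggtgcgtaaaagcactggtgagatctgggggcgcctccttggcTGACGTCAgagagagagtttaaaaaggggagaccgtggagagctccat
The G-run motif of Pvalb lies between positions -90 and -69 on the gene's strand, counted from the start site, and the window of the other Pvalb start site holds none. It was present in 2 of the 11 windows (18.2%; Pvalb and Reln), against 16.6% of 32851 windows of all genes. The Npy window has 12 runs of GGG or longer on its own strand but no such motif. The element TGACGTCA was found in the Sst window only, at positions -48 to -41, which is 1 of 11 windows (9.09%) against 1.55% of all windows. These matches describe letters in the window and do not show a structure or binding.

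Signals are intensities above the blank spots of the array, in the scanner's units, before any scaling between channels. The median signal over all probes lay between 36 and 79 in the 4 channels, and the SD of the blank spots between 0.92 and 3.3. Between 83.3% and 89.9% of probes were above background in a channel. Atrx itself read 47.4 in wild type and 19.1 in AtrxdE2, and 54.6 and 71.5 on the second array, with log2 ratios of -0.68 and -0.36 after normalization and of -1.96 and -0.78 in the authors' value table. Whether its probe lies in the deleted part is not known, so it checks the labels only in part. Camk2a and Nrgn, genes of excitatory neurons, and Gad2, a gene of inhibitory neurons, were above background in all 4 channels. Markers of other cells differed as well, in lists chosen with earlier results of these data known. Of 13630 measured genes, 6723 and 7198 were above 0 in the log2 ratio on the first and second array, and 6907 and 6432 below. Of 14 meningeal genes, 13 were above 0 on both arrays (medians 0.37 and 0.67), with summed signals of 1124 and 2825, then 928 and 4045, wild type first. Of 12 oligodendrocyte genes, 12 and 11 were below 0 (medians -0.52 and -0.30; 6 of 12 on the second array with median centring), with summed signals of 15469 and 14435, then 14748 and 22404. None of these genes was at 0 in a channel, and their part in the values below was not tested. With so few arrays, every value is of limited precision.

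**Figure D1:**
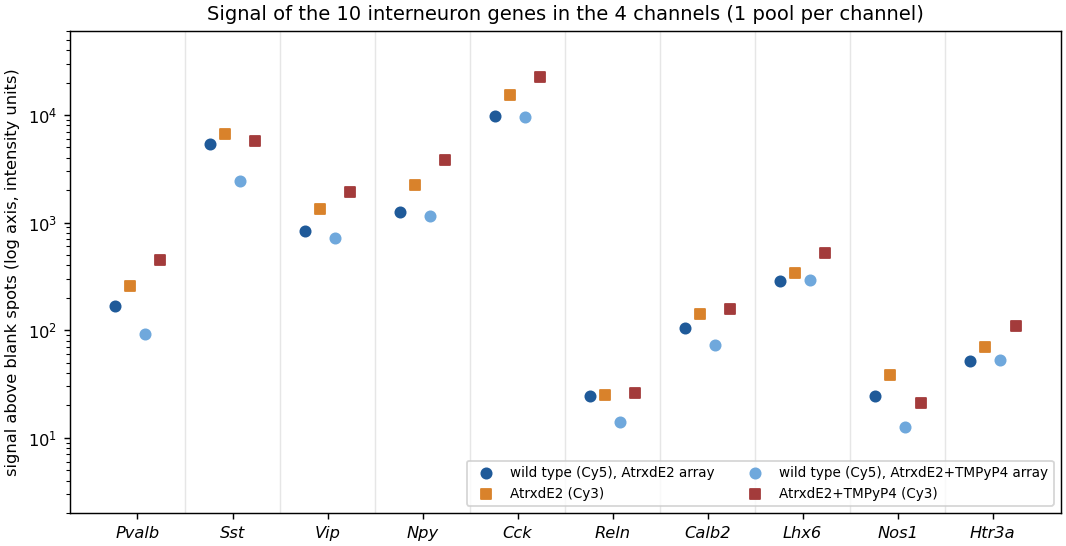
Signal above the blank spots (log axis, intensity units) of the 10 interneuron genes in the 4 channels, 1 pool per channel, circles for wild type and squares for the mutant pools. Sst in wild type reads 5375 on one array and 2442 on the other. Pvalb is highest in AtrxdE2+TMPyP4 at 447.8, in the channel that also has the highest median over all probes. Reln and Nos1 are the dimmest probes, and levels of different probes are not comparable.

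Log2 ratios below are mutant over wild type within an array, after background correction and loess normalization, which fits and removes the dependence of the ratio on signal. The treated pool was set against the untreated mutant by the difference of both ratios. Each gene's ratio is read against the SD of the ratios of the 500 measured genes nearest to it in signal. As a second yardstick, the wild-type channels of the arrays were compared after quantile normalization, which gives them 1 distribution of values. These wild-type differences had an SD of 0.27 over all measured genes. The SD of the ratios was 0.19 on the first array and 0.20 on the second, and that of their difference was 0.26.

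Pvalb encodes parvalbumin, the calcium buffer of fast-spiking interneurons. Its signal was 168.7 in wild type and 257.8 in AtrxdE2 on the first array, and 92.7 in wild type and 447.8 in AtrxdE2+TMPyP4 on the second. The treated pool was the highest of the 4 channels, but its median signal over all probes was also the highest, at 79. Wild type was lower on the second array than on the first, by 1.82-fold against a median of 1.17-fold over all measured genes. Against wild type on its own array, Pvalb stood at a log2 ratio of -0.014 in AtrxdE2 and 0.87 in AtrxdE2+TMPyP4, which is 1.83-fold, with an SD of 0.22 among the nearest genes on both arrays. The difference of both ratios was 0.89, or 1.85-fold (SD of the nearest genes 0.30). It was the only one of the 10 genes past 1.5-fold in either of the comparisons that involve the treated pool.

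The size of the Pvalb ratio depended on which wild-type value was used, and a difference between wild-type pools cannot be told apart from one between arrays. After quantile normalization, the log2 difference of wild-type Pvalb, second array over first, was -0.46 (SD of the nearest genes 0.34). Set against the mean of both wild-type channels, Pvalb was at 0.24 in AtrxdE2 and 0.61 in AtrxdE2+TMPyP4. The Cy3 channels compared directly, with no wild type, gave 0.39 for AtrxdE2+TMPyP4 over AtrxdE2 (SD of the nearest genes 0.50). The treated pool was thus higher under each of these readings, but in the direct one by less than the SD of genes of like signal. The authors' value table gave larger ratios, 1.10 over wild type and 1.14 for the difference, as did plain subtraction of the blank level without an offset, at 1.12 and 1.14.

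The treated pool also differed in markers of other tissue. Of 9 measured choroid plexus genes, 8 were past 1.5-fold higher in AtrxdE2+TMPyP4 over wild type, where 123 of 13630 measured genes were. Ttr, the thyroid hormone carrier made by that epithelium, stood at a log2 ratio of 6.59. The summed signal of the 9 choroid plexus genes was 180 in wild type and 574 in AtrxdE2, then 326 in wild type and 62514 in the treated pool. Ttr alone read 44.3 and 352.6, then 219.4 and 60791, so the last sum is almost wholly that probe. None of the 9 was at 0 in any channel, and Cldn2, F5 and Aqp1 of the list were on the array but not above background in all channels. Pvalb is also expressed in the neighbouring cortex and thalamus. In AtrxdE2+TMPyP4 over wild type, 52.8% of all measured genes were above 0 and 1.36% were past 1.5-fold. Of 10 cortical genes, 4 were above 0 (median -0.074) and 2 were past 1.5-fold, both higher. These were Rspo1 at 1.42 and Lamp5, also an interneuron marker, at 0.97. Of 11 genes of thalamus and habenula, 6 were above 0 (median 0.035). They ran from Prkcd at -0.79, the 1 gene past 1.5-fold, to Rora at 0.55. Summed signals before scaling between channels were 3954 and 10910 for cortex and 2029 and 4826 for thalamus and habenula, wild type first. The part of these markers in the Pvalb ratio was not tested.

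The 3 measured genes whose pair of ratios over wild type lay nearest to that of Pvalb, by Euclidean distance over the 2 arrays, were Lmbrd2 (distance 0.121), Kcnab3 (0.139) and Commd9 (0.143). Their log2 ratios in AtrxdE2+TMPyP4 were 0.98, 0.94 and 0.73. Kcnab3, a beta subunit of voltage-gated potassium channels, had nearly equal wild-type signals of 134.1 and 127.4, with 228.0 in AtrxdE2 and 626.4 in AtrxdE2+TMPyP4. Lmbrd2 and Commd9 had wild-type channels that were higher on the second array, by 0.67 and 0.95 log2 units, the opposite of Pvalb. A match over 2 values describes these arrays and no more.

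Npy encodes neuropeptide Y, a peptide of several interneuron classes, including many somatostatin and neurogliaform cells. Its signal was 1246 in wild type and 2253 in AtrxdE2, then 1139 in wild type and 3823 in AtrxdE2+TMPyP4. The wild-type channels were close to each other. The treated pool was the highest channel, but it also had the highest median signal over all probes, at 79. The log2 ratio was 0.22 in AtrxdE2 and 0.51 in AtrxdE2+TMPyP4 (1.43-fold), against SDs of 0.25 and 0.23 among the nearest genes. The wild-type channels differed by 0.10 after quantile normalization (SD 0.39), and the ratios over the mean of both were 0.16 and 0.52. The difference of ratios, 0.30, was about the SD of the nearest genes, 0.29, and the Cy3 channels gave 0.36 (SD 0.47). Npy was above 0 in all 3 comparisons and under the 6 alternatives that could change each of them, although it passed 1.5-fold in none of the 3 as reported.

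Sst encodes somatostatin, the peptide of dendrite-targeting interneurons. Its signal was 5375 in wild type and 6615 in AtrxdE2 on the first array, and 2442 in wild type and 5692 in AtrxdE2+TMPyP4 on the second. The low value is a wild-type channel: the mutant pools differed less from each other than the wild-type channels did. After quantile normalization wild-type Sst was 1.86-fold higher on the first array, a log2 difference of -0.89 (SD of the nearest genes 0.39). Of 13630 measured genes, 110 were lower by at least as much, Sst included. In the Cy3 channels the treated pool was lower as well, at -0.59 (SD 0.47).

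The ratios of Sst therefore depend on which wild-type value is used. Within the arrays they were -0.28 in AtrxdE2 and -0.0085 in AtrxdE2+TMPyP4, with SDs of 0.25 and 0.26 among the nearest genes, and their difference was 0.27. Over the mean of both wild-type channels they were 0.13 and -0.46. The treated pool was higher than AtrxdE2 by the difference of ratios and lower by the direct comparison of Cy3 channels. No direction is given for Sst in either mutant pool, and a difference between wild-type pools cannot be told apart from one between arrays.

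Some other abundant neuronal transcripts were also lower in the second wild-type channel, and in the Cy3 channel of the same array. Nrgn and Camk2a, postsynaptic proteins of excitatory neurons, stood at -1.29 and -1.07 in the wild-type channels and at -1.29 and -1.38 in the Cy3 channels. Of 10 measured excitatory genes, 7 were below 0 between the wild-type channels and 6 between the Cy3 channels. Of all measured genes, 52.6% and 52.9% were above 0. The summed signal of the list was 14173 and 7396 in the wild-type channels and 23066 and 18091 in the mutant channels. Ppp1r1b, which encodes DARPP-32 and is most abundant in the striatum, stood at -1.02, with wild-type signals of 3448 and 1445, and at -1.01 in the Cy3 channels. The striatal list as a whole was split in the wild-type channels, with 5 of 9 measured genes above 0 and 4 below, and summed signals of 4918 and 2551. In the Cy3 channels 3 were above 0 and 6 below. All listed genes counted here were above background, and their part in the Sst values was not tested. Over the 13630 measured genes, the differences between arrays in the Cy5 channels and in the Cy3 channels correlated with r = 0.73, and the points share both arrays, their spots and their hybridisations.

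**Figure D2:**
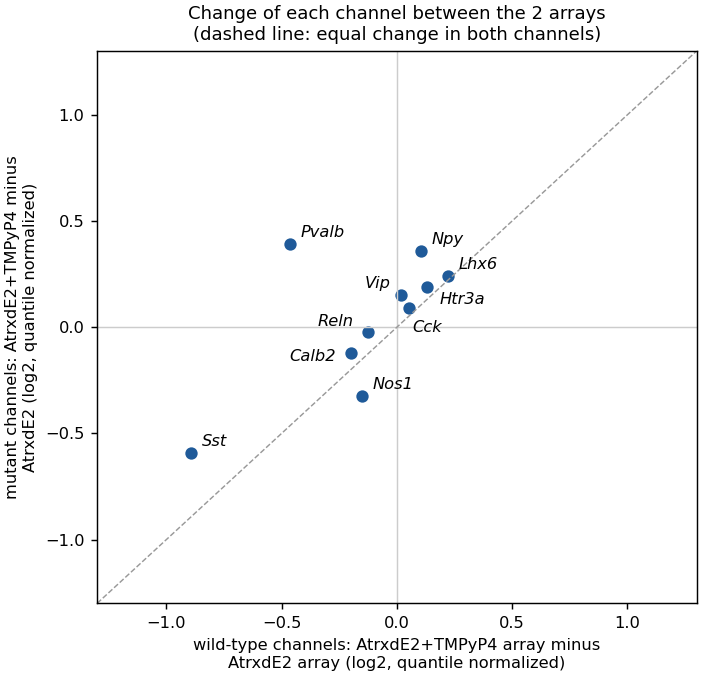
Log2 difference between the second and the first array after quantile normalization, for the wild-type channels (horizontal axis) and the mutant channels (vertical axis), 1 point per interneuron gene; the dashed line marks an equal change in both. Sst lies low on both axes at -0.89 and -0.59, and Pvalb lies farthest from the line, at -0.46 and 0.39.

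Lhx6 encodes the LIM homeodomain factor of cells from the medial ganglionic eminence, the origin of most Pvalb and Sst cells. Its signal was 283.5 in wild type and 341.2 in AtrxdE2, then 295.6 in wild type and 519.1 in AtrxdE2+TMPyP4. The wild-type signals were close before scaling, and after quantile normalization the second was higher by 0.22 log2 units (SD of the nearest genes 0.33). The log2 ratios were -0.32 and -0.30, or 1.25-fold and 1.24-fold lower than wild type, with SDs of 0.24 and 0.21 among the nearest genes, and their difference was 0.012. Over the mean of both wild-type channels the ratios were -0.44 and -0.22, and the Cy3 channels gave 0.24 for AtrxdE2+TMPyP4 over AtrxdE2 (SD 0.48). Lhx6 was thus lower than wild type on both arrays, although without loess, centred on the median, the second ratio became 0.13. The shared dye orientation cannot be told apart from the shared genotype here.

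Vip encodes vasoactive intestinal peptide, made by interneurons that mostly inhibit other interneurons. Its signal was 835.8 in wild type and 1344 in AtrxdE2, then 714.2 in wild type and 1912 in the treated pool, with log2 ratios of 0.038 and 0.20. Both were within the SD of the nearest genes, 0.22 and 0.23, and the wild-type channels differed by 0.017. Cck encodes cholecystokinin, a peptide of CB1-expressing basket cells that pyramidal cells also make in quantity. It read 9784 and 15462, then 9663 and 22542. Its ratios were 0.11 and -0.037 (SDs 0.26 and 0.28) and its difference -0.15, and the sign of the last 2 changed under several alternatives.

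Calb2 encodes calretinin, a calcium-binding protein of interneuron-targeting cells and, in mice, of mossy cells. Its signals were 105.4 and 142.1, then 73.2 and 157.4, and its log2 ratios of -0.12 and 0.011 were within SDs of 0.21 and 0.25. Htr3a encodes a subunit of the ionotropic serotonin receptor found on cells from the caudal ganglionic eminence. It read 51.5 and 70.3, then 53.3 and 109.0, with ratios of -0.073 and -0.026 against an SD of 0.19 on both arrays. For both genes the difference of ratios, 0.13 and 0.047, was within the SD of the nearest genes too.

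Reln and Nos1 were the dimmest probes of the set. Reln encodes reelin, a secreted matrix protein of Cajal-Retzius and many neurogliaform and oriens cells, and read 24.4 and 24.9, then 13.9 and 26.1. Its log2 ratios were -0.18 and -0.059 (SDs 0.12 and 0.11), and -0.62 and -0.26 in the authors' value table, where the first is past 1.5-fold. Nos1 encodes neuronal nitric oxide synthase, found in neurogliaform and ivy cells, and read 24.4 and 38, then 12.7 and 21.2. Its ratios were 0.0068 and -0.092 (SD 0.11 on both arrays), and -0.01 and -0.43 in the authors' table. The AtrxdE2 signal of Reln was 7.6 times the SD of the blank spots and the treated signal of Nos1 was 6.5 times, and plain subtraction of the blank level moved the ratio of Reln in AtrxdE2 to -0.61 and that of Nos1 in the treated pool to -0.44. Of 8 listed Cajal-Retzius genes, 6 were measured, with medians of 0.0099 and -0.022 over wild type.

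**Figure D3:**
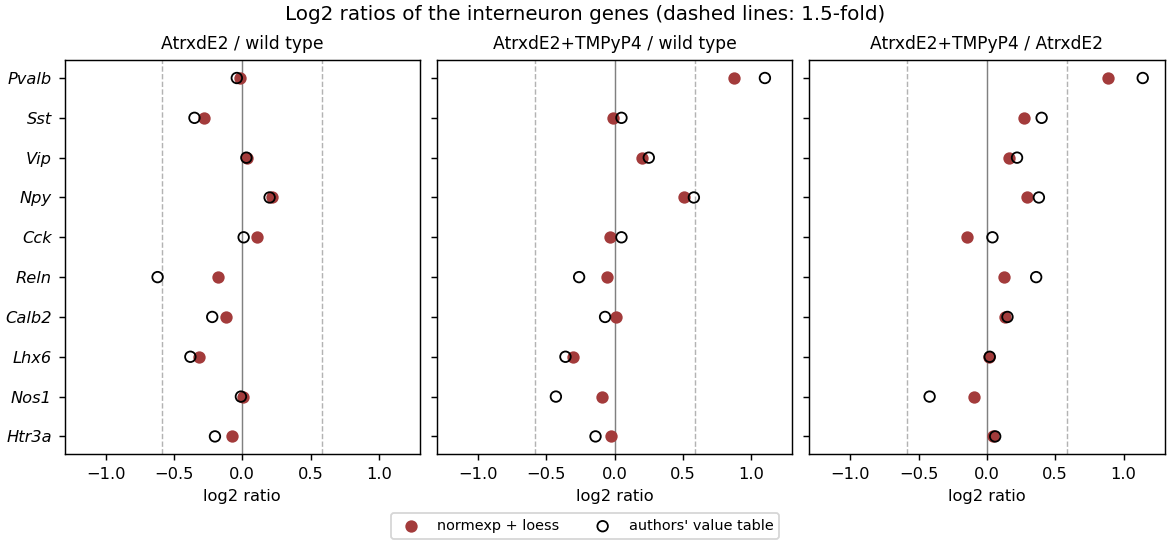
Log2 ratios of the 10 interneuron genes in 3 comparisons, filled points from background-corrected and loess-normalized signals and open points from the authors' value table; dashed lines mark 1.5-fold. Pvalb stands alone past 1.5-fold in the treated pool at 0.87 and 0.89, while in AtrxdE2 over wild type all filled points lie between -0.32 and 0.22.

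As a set, the genes showed no common direction over wild type. In AtrxdE2, 4 were above 0 and 6 below, with a median of -0.044 against -0.0029 over all measured genes, of which 49.3% were above 0. None of the 10 was past 1.5-fold, as were 1.1% of measured genes, or past 2-fold (0.0293%). In AtrxdE2+TMPyP4, 4 were again above 0 and 6 below (52.8% of all genes above 0), with a median of -0.017 against 0.0095. One gene, Pvalb, was past 1.5-fold, where 1.36% of measured genes were, and 0 were past 2-fold (0.191%). Pvalb passed 2-fold over wild type with plain subtraction (1.12), an offset of 16 (1.01), the authors' value table (1.10) and median centring (1.20, with Npy at 1.10), settings under which 1.9%, 0.36%, 2.02% and 1.05% of measured genes did. For AtrxdE2+TMPyP4 over AtrxdE2, 8 of 10 were above 0 (52.7% of all genes), with a median of 0.13 against 0.015. The Cy3 channels compared directly had 6 of 10 above 0, where 52.9% of all genes were. In the difference of ratios Pvalb alone was past 1.5-fold (3.24% of all genes) and 0 past 2-fold (0.315%). Pvalb was past 2-fold there under the same 4 settings, in the same order, where 4.66%, 0.668%, 4.59% and 0.836% of measured genes were. These 3 comparisons share channels, so their counts do not support each other.

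The wild-type channels set a scale for these counts. Between them 5 genes were above 0 and 5 below (52.6% of all genes above 0), and 1 of 10, Sst, was past 1.5-fold, where 4.61% of measured genes were. The ratio in AtrxdE2 was smaller in size than the difference between the wild-type channels for 5 of the 10 genes (Pvalb, Sst, Calb2, Nos1 and Htr3a), against 57.9% of all measured genes. In AtrxdE2+TMPyP4 it was smaller for 6 (Sst, Cck, Reln, Calb2, Nos1 and Htr3a), against 59.5%. What both channels of an array share cancels in a ratio but not in this yardstick, which is therefore a wide one.

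Centring on the median without loess shifted the ratios of bright probes as a whole. In AtrxdE2+TMPyP4 the median of all measured genes was then 0.18, and 0.43 for those above the median signal, and 2090 genes were past 1.5-fold higher and 12 lower, against 123 and 63 with loess. Under that setting 8 of the 10 interneuron genes were above 0, where 9015 of 13630 measured genes were. Past 1.5-fold were 5 of the 10 (15.4% of all genes): Pvalb at 1.20, Npy at 1.10, Vip at 0.76, Cck at 0.62 and Sst at 0.60. The 1.5-fold cut is itself above the 0.43 of bright genes, so these 5 exceeded 0.43 by selection and not as a separate result. Calb2 at 0.18 and Lhx6 at 0.13 were below 0.43.

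**Figure D4:**
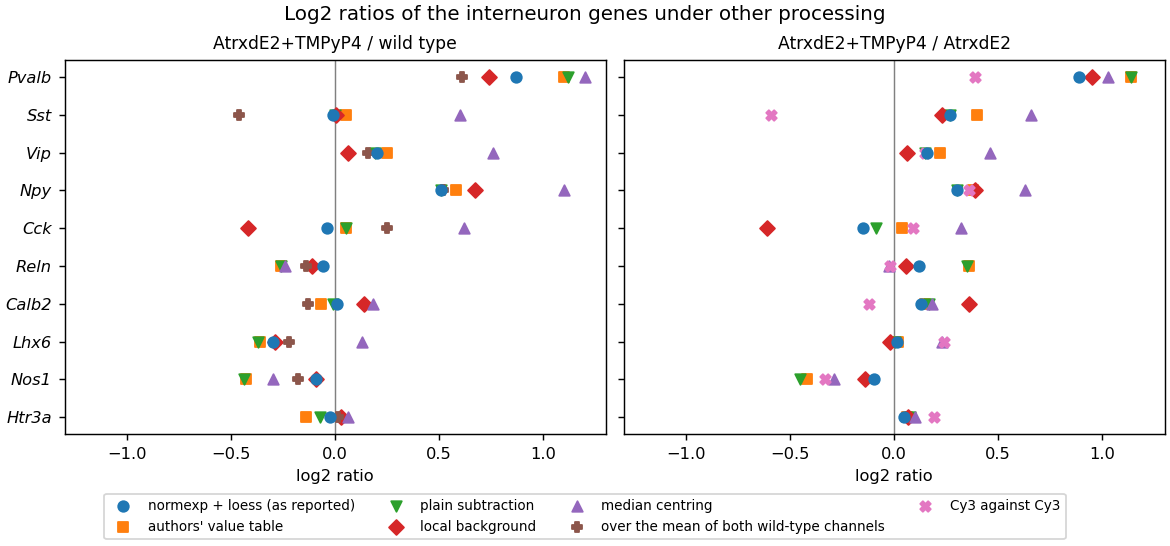
Log2 ratio of each interneuron gene in AtrxdE2+TMPyP4, set against wild type and against AtrxdE2, as reported (circles) and under 5 alternatives each. Pvalb ranges from 0.61 to 1.20 over wild type and Npy from 0.51 to 1.10, both above 0 throughout, while Sst ranges from -0.46 to 0.60.

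Genes that act with these markers were examined by list. GABA synthesis and transport had 5 of 7 listed genes measured. In AtrxdE2 over wild type 4 of the 5 were below 0 (median -0.16), from the astrocytic GABA transporter gene Slc6a11 at -0.63 to Gad2, a GABA-synthesising enzyme of interneurons, at 0.035. In AtrxdE2+TMPyP4 4 of 5 were below 0 (median -0.088), from the vesicular GABA transporter gene Slc32a1 at -0.37 to the glutamine transporter gene Slc38a1 at 0.029. The signal of Slc32a1 was 806.8 and 1125, then 480.4 and 827.1, and that of Gad2 was 522.1 and 842.1, then 597.9 and 1231. Of the 13630 measured genes, 6907 were below 0 in AtrxdE2 over wild type and 6432 in AtrxdE2+TMPyP4. With median centring, 3 of 5 and 5 of 5 of the list were above 0, where 8413 and 9015 of 13630 measured genes were. No direction is therefore given for this list.

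Transcription factors of interneurons had 12 of 20 listed genes measured, with medians of 0.11 in AtrxdE2 (8 above 0) and -0.02 in AtrxdE2+TMPyP4 (6 above 0). Of all measured genes, 49.3% and 52.8% were above 0. The highest in AtrxdE2 was Satb1, a chromatin organiser needed by Sst and Pvalb cells, at 0.59. Its signal was 908.0 and 2158, then 906.5 and 2591, with a ratio of 0.29 in the treated pool. Maf, a factor of cells from the medial ganglionic eminence, was the highest in AtrxdE2+TMPyP4 at 0.64, with signals of 201.1 and 410.2, then 125.4 and 480.5. Dlx1, an early factor of the interneuron lineage, was the lowest in the treated pool at -0.30. For AtrxdE2+TMPyP4 over AtrxdE2, 9 of 12 were below 0, with a median of -0.12 and Dlx6 the lowest at -0.44. There 8 of the 10 subtype genes were above 0, as were 52.7% of all genes. None of the 12 passed 1.5-fold in that comparison, where 3.24% of all genes did. In the Cy3 channels compared directly, 11 of the 12 were below 0. In that reading 6 of the 10 subtype genes and 52.9% of all genes were above 0.

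Other interneuron markers had 31 of 34 listed genes measured, with medians of -0.037 in AtrxdE2, 0.085 in AtrxdE2+TMPyP4 and 0.15 for the treated over the untreated mutant. In the last 2 comparisons 21 of 31 were above 0, against 52.8% and 52.7% of all genes. Lamp5, which marks neurogliaform cells and is annotated here as 6330527O06Rik, was the highest in the treated pool. It also stands in the cortical list. It read 1025 and 1343, then 1050 and 4880, and its wild-type channels differed by 0.27 log2 units after quantile normalization. Its ratio was -0.24 in AtrxdE2, 0.97 in AtrxdE2+TMPyP4 and 1.21 for their difference, and 1.44 in the Cy3 channels compared directly. The lowest gene on both arrays was Penk (annotated as Penk1), which encodes proenkephalin, at -0.96 and -0.52, with signals of 1484 and 1150, then 688.9 and 1075. Like Sst it was lower in the second wild-type channel, at -0.83, and in the second Cy3 channel, at -0.41. Penk is also abundant in the striatum. All 9 measured striatal genes were below 0 in AtrxdE2+TMPyP4 over wild type (median -0.43), where 6432 of 13630 measured genes were. In AtrxdE2, 7 of 9 were below 0, where 6907 of 13630 measured genes were. The summed signals of the striatal genes, before any scaling between channels, were 4918 and 4704, then 2551 and 3400, wild type first. The part of these genes in the Penk ratios was not tested.

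**Figure D5:**
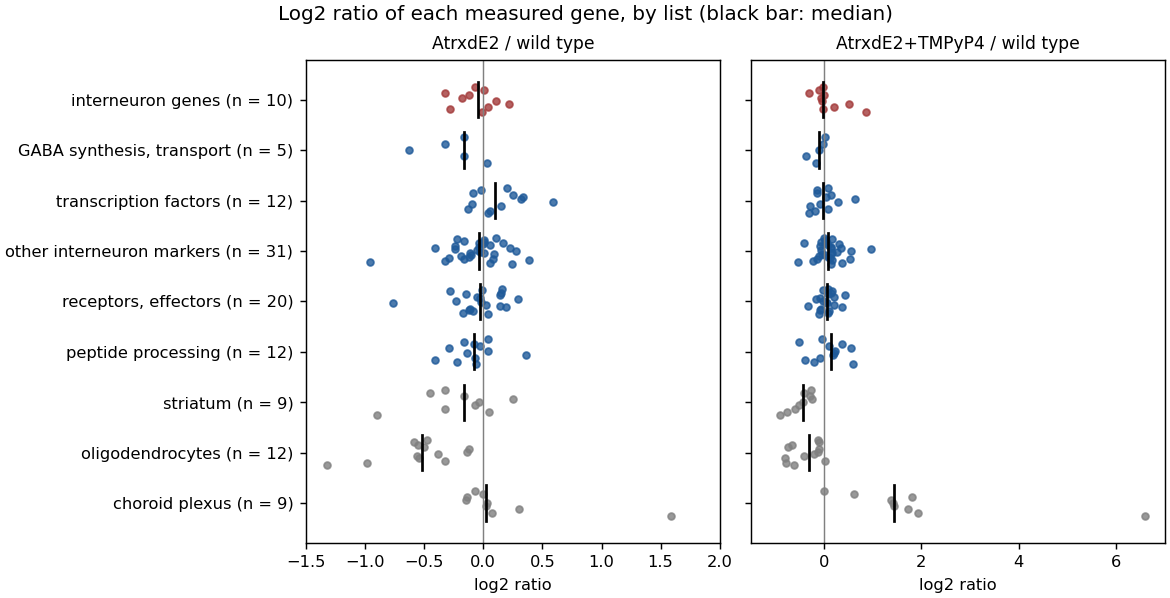
Log2 ratio over wild type of each measured gene in the interneuron set (red), in 5 lists of genes that act with them (blue) and in 3 lists of other cells or regions (grey), with black bars at the medians; the horizontal scales of the panels differ. The interneuron lists have medians between -0.16 and 0.15, the striatal list lies wholly below 0 in the treated pool, and 8 of 9 choroid plexus genes lie at 0.62 or above.

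Receptors and effectors of the encoded peptides, of reelin, of serotonin and of nitric oxide had 20 of 23 listed genes measured, with medians of -0.024 and 0.075 over wild type. The gastrin and cholecystokinin receptor gene Cckbr was the lowest in AtrxdE2 at -0.76 and stood at 0.066 in AtrxdE2+TMPyP4. Its signal was 345.8 and 289.3, then 319.0 and 759.0, so that its wild-type channels were nearly equal and the AtrxdE2 value was the low one. The difference of ratios was 0.83 and the Cy3 channels gave 0.93. The listed neuropeptide Y receptor genes Npy1r, Npy2r and Npy5r stood at 0.19, 0.14 and 0.024 in AtrxdE2. All were above 0 there, where 49.3% of all measured genes were. In the treated pool Npy1r and Npy5r stood at 0.37 and 0.22, and Npy2r was below 0. Npy2r, the presynaptic receptor, was the lowest in the treated pool at -0.32 (signals 72.6 and 128.1, then 76.1 and 111.9). Npy1r, the postsynaptic receptor, had ratios of 0.19 and 0.37, and the log2 difference of its wild-type channels was -0.80.

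Genes that process and pack neuropeptides were all measured, 12 of 12, with medians of -0.074 in AtrxdE2 and 0.15 in AtrxdE2+TMPyP4. The prohormone convertase gene Pcsk1 was the highest in the treated pool at 0.60, with signals of 90.9 and 128.8, then 64.4 and 254.1. Pcsk1n, which encodes the inhibitor proSAAS, was the lowest there at -0.50. For the treated over the untreated mutant, 8 of 12 were above 0 and 2 past 1.5-fold, Scg2 (secretogranin II, a granule protein) at 0.85 and Pcsk1 at 0.66. Of all measured genes, 52.7% were above 0 there and 3.24% past 1.5-fold. Scg2 read 620.1 and 783.5, then 904.9 and 3140, and its wild-type channel was higher on the second array by 0.73. With median centring 11 of 12 were above 0 in the treated pool, with a median of 0.69. Under that setting 9015 of 13630 measured genes were above 0, with a median of 0.18.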

How the data were processed

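Two-colour arrays carried wild type in Cy5 and the mutant pool in Cy3, per the labels. The deposited scanner tables hold the median intensity of each spot and its local background, merged by the authors from 3 scanner gains, per the file headers. The scanning software is not given in the sources used here. Log2 ratios of the mutant pool to wild type, normalized by the authors, come from their deposited value table, per the labels. Its background step and centring are unstated.

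The background level was the trimmed mean of the blank spots (a share of 0.05 dropped at both ends). It was corrected with normexp (limma 3.58.1, R 4.3.3; offset 50), and loess was run within each array, giving control spots no weight. A probe was measured when not marked bad and above the blank mean plus 2 SD in all 4 channels. Wild-type and Cy3 channels were compared across arrays after quantile normalization. Background correction and loess were tested on simulated data. The offset draws ratios of dim probes towards 0. With 1 array per mutant group no test was possible, and counts use 1.5-fold and 2-fold.

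The genes and lists were chosen with earlier results of these data known. All 10 genes were named. From each list the highest and lowest gene in a comparison could be named, for a gene past 1.5-fold the 3 genes nearest by ratios, and Ttr, Ppp1r1b, Mbp and Atrx. Npy5r was named beside these to complete the listed neuropeptide Y receptors. Alternatives were other background levels and offsets, median centring, the authors' table, other filters on dim probes, the brightest probe, the mean of both wild-type channels and Cy3 against Cy3. Symbols are those of the platform annotation.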

Additional observations from a re-analysis of the deposited data

How the results depend on the processing

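Of 190 values of the 10 genes that the alternatives could change, 162 moved by less than the SD of the wild-type difference among genes of like signal and 28 moved by more. That yardstick is wide, so a value could change sign without counting as moved. The Cck ratio in AtrxdE2+TMPyP4 over wild type had the other sign in 5 of 6 alternatives. For AtrxdE2 over wild type, 1 of 10 genes was past 1.5-fold with plain subtraction of the blank level, 1 in the authors' value table (Reln in both, at 9.05% and 9.27% of all measured genes) and 0 as reported, and the median ratio over the mean of both wild-type channels was 0.053. For AtrxdE2+TMPyP4 over wild type, 2 genes were past 1.5-fold with the local background (Pvalb and Npy; 6.95% of all genes) and 5 with median centring (15.4%), where the median was 0.39. For AtrxdE2+TMPyP4 over AtrxdE2, 2 were past 1.5-fold with the local background (Pvalb and Cck, the latter at -0.61; 10.5% of all genes) and 3 with median centring (Pvalb, Sst and Npy; 8.23%), where the median was 0.27. The cause of these shifts was not tested. Of the 28 values that moved, 10 did so with median centring, 5 each with plain subtraction and the authors' table, 4 with Cy3 against Cy3, 2 over the mean of both wild-type channels, 1 with the local background and 1 with an offset of 16. Each gene has 1 probe that was measured in all channels, so the 3 settings on dim probes and on the brightest probe could not change a value; restriction to probes above the median signal left 7 genes. The ratio of Pvalb over wild type in AtrxdE2+TMPyP4 kept its sign in the 6 alternatives that could change it, as did that of Npy. Signal over background limits Reln and Nos1 most. No paired analysis was possible because each mutant group is 1 array, and no replicate could be left out.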
